A study of Mus musculus with 18 samples.

Results

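Mouse bone marrow-derived macrophages that had received dimethyl itaconate and then LPS were compared with cells that had received neither. The comparison used 3 libraries of each kind, chosen by their labels, which are 6 of the 18 libraries of the series and 6 of the 12 of its first experiment. All 6 came from wild-type cells of C57BL/6 background, matured from marrow over 7 days in M-CSF (20 ng/ml), on which marrow precursors become macrophages. The treated group, called compound plus LPS, had 0.25 mM dimethyl itaconate for 12 h and was then stimulated with 100 ng/ml LPS from E. coli for 4 h. The control group, called vehicle, had the vehicle for 12 h and is labelled unstimulated. The other 2 groups of the experiment, LPS after vehicle and the compound without LPS, hold 3 libraries each and are used to place the levels of named genes and lists. The labels do not say whether replicates came from separate animals or separate cultures, so p-values measure the spread between these libraries, which may be technical. A difference between these groups is the net of both agents and of the time in culture, and the comparison cannot divide it between them.

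LPS, the lipopolysaccharide of Gram-negative bacteria, binds CD14 and Toll-like receptor 4 and signals through the adaptors MyD88 and TRIF. The MyD88 branch leads to NF-kB and the inflammatory cytokines, and the TRIF branch to interferon beta, whose receptor acts on the interferon-stimulated genes. Activated macrophages make itaconate from an intermediate of the tricarboxylic acid (TCA) cycle with the enzyme encoded by Acod1, also called Irg1. Dimethyl itaconate is a membrane-permeable ester that reacts with thiols. Such compounds are known to modify KEAP1, which releases the transcription factor NRF2 to bind antioxidant response elements together with small MAF proteins.

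Promoters of 6 genes are shown because each stands for one of 3 gene groups whose rises are described here, and because each holds the core letters of the element that its group is known for. Windows of 300 bases, from 250 before the start site to 50 after it, were searched on both strands, and the 250 bases before the start site are printed 5′ to 3′ on the gene's strand. Sequences and start sites are those of RefSeq on GRCm38.p6, the build called mm10 in the submitters' processing notes, and capitals mark the match. The first pair comes from the glutathione and thioredoxin groups and holds the antioxidant response element core TGACNNNGC, at chr1:21240335-21240584 (plus strand) for Gsta3, a glutathione transferase, and at chr10:82858956-82859205 (plus strand) for Txnrd1, thioredoxin reductase, where the match lies on the opposite strand.
Gsta3: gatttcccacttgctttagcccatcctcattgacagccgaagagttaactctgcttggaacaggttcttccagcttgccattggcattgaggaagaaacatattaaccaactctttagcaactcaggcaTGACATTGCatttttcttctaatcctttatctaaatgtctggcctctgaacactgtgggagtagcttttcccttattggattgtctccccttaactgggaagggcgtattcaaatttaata
Txnrd1: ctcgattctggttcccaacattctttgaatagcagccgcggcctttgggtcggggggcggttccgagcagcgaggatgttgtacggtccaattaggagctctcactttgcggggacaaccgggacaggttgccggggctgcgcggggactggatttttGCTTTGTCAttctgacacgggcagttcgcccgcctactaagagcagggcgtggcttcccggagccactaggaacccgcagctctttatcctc
The second pair comes from the chemokine group and holds the NF-kB core, which is GGGA and CC with any 4 bases between them, at chr5:90785851-90786100 (plus strand) for Cxcl3 and at chr5:90903649-90903898 (plus strand) for Cxcl2, both ligands of the neutrophil receptor CXCR2. In both, matches on the 2 strands overlap and are marked as 1 run.
Cxcl3: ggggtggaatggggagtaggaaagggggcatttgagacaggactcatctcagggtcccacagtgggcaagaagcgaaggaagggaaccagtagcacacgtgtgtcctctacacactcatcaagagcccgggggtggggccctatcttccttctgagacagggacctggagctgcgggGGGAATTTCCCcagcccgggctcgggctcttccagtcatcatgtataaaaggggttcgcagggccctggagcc
Cxcl2: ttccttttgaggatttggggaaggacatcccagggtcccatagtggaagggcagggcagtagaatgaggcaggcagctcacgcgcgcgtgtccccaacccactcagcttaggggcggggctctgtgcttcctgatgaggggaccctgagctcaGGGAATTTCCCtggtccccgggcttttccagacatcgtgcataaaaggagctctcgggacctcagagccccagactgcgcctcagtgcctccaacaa
The third pair was added after the motif counts were seen. It holds the core of the interferon-stimulated response element, GAAA and GAAA with any 2 bases between them, at chr1:174031756-174032005 (minus strand) for Ifi205, a DNA-binding protein of the interferon-inducible p200 family, and at chr12:26456453-26456702 (minus strand) for Rsad2, the antiviral enzyme viperin, where the match lies on the opposite strand.
Ifi205: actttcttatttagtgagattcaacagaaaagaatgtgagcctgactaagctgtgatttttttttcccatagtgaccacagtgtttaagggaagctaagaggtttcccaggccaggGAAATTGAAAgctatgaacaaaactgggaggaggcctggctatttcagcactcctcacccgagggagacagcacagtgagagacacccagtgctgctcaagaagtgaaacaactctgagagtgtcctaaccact
Rsad2: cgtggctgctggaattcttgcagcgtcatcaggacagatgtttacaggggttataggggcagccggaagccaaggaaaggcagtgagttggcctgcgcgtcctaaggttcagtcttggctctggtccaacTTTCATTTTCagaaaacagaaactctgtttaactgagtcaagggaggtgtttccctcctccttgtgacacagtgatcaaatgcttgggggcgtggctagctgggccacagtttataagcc

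The matches began 121 bases before the start site in Gsta3, 92 in Txnrd1 (1 of 3 windows listed for this gene), 73 in Cxcl3, 97 in Cxcl2, 134 in Ifi205 and 120 in Rsad2. Ifi205 had another match 23 bases after the start site, outside the printed bases. Among 7899 tested genes with a promoter in the table, 17.2% held the antioxidant core, 29.9% the NF-kB core and 3.95% the interferon core. The interferon core stood in 15 of the 29 called members of the type I interferon list with a promoter (51.7%) and in 6.5% of all genes called higher. The NF-kB core stood in 22 of the 39 called members with a promoter of the cytokine, chemokine and NF-kB lists (56.4%). It stood in 32.6% of all genes called higher. The antioxidant core stood in 8 of the 27 called members with a promoter of the 3 oxidant defence lists (29.6%). It stood in 8 of the 29 interferon genes (27.6%) and in 18.3% of all genes called higher. All these shares cover only genes with a promoter in the table. A match says only that these letters are present.

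The deposited counts came to between 2228760 and 7010265 per vehicle library and between 4032466 and 5959474 per compound plus LPS library, and 9704 genes passed the filter on low counts. Levels are given as CPM, the depth-scaled count, with library totals adjusted by the trimmed mean of M-values (TMM). A ± after a mean CPM gives the standard deviation over the 3 libraries of a group. Fold changes are given as log2 of compound plus LPS over vehicle, where ± gives their standard error (SE). Replicates correlated between 0.942 and 0.96 on log2 CPM in compound plus LPS and between 0.932 and 0.971 in vehicle, where the lowest values involved replicate 2, the shallowest library. Libraries of different groups correlated between 0.751 and 0.797. The cell type of the labels was checked on 10 macrophage-defining genes: all were counted in both groups, Cd14, Spi1 and Adgre1 were called higher, Itgam and Lyz2 lower and 5 did not pass, with a median of -0.24. Their summed share of the counts was 0.821% to 1.14% in vehicle and 0.395% to 0.522% in compound plus LPS. The 6 erythroid markers and 5 of 8 T and NK cell markers had 0 counts in all 6 libraries, and no B cell, mast cell or basophil marker reached the filter. Of 8 dendritic cell markers 2 were tested, Itgax (higher) and Siglech (lower), and Flt3 had 0 counts. The 11 neutrophil markers summed to 0.0404% to 0.0577% in vehicle and 0.0303% to 0.0434% in compound plus LPS, with Mmp8 and S100a8 called higher and Retnlg and Ngp lower among 7 tested, and the 8 stromal markers to 0.00805% to 0.0142% and 0.00524% to 0.0056%. Fewer cells of a type and less RNA per cell cannot be told apart in these bulk samples.

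Of the 9704 genes, 1892 were higher (19.5%) and 1829 lower (18.8%) in compound plus LPS at an adjusted p under 0.05, which is 38.3% of all genes tested (edgeR quasi-likelihood test, Benjamini-Hochberg). When tested against a 2-fold change, 808 genes were higher (8.33%) and 673 lower (6.94%). At a fitted change of 2-fold or more, 1446 genes were called higher and 1574 lower, and at 4-fold or more 606 and 691. The order turned in the far tail, where 175 genes called higher and 100 called lower had a fitted change of 16-fold or more, and 48 and 20 had 64-fold or more. The 3 libraries of each group did not overlap in 4841 genes (49.9%). The median log2 fold change of all genes was -0.06.

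**Figure D1:**
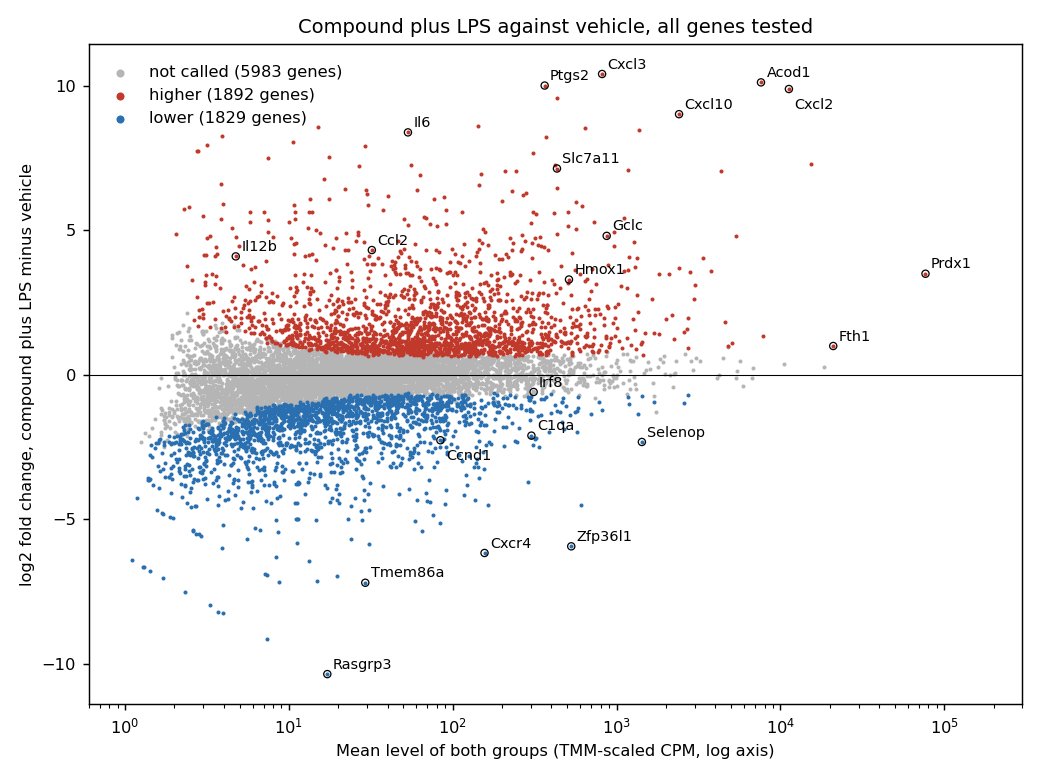
Each point is 1 of the 9704 genes tested, with its mean level over both groups on the log horizontal axis (TMM-scaled CPM) and its log2 fold change, compound plus LPS minus vehicle, on the vertical axis. The 1892 genes called higher (red) reach about 10 at Acod1, Cxcl3 and Ptgs2, the 1829 called lower (blue) include Zfp36l1 and Cxcr4, and points of genes with 0 counts in a group, such as Rasgrp3, are fitted values that depend on a prior count.

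The libraries of the 2 groups differed in makeup. The genes called higher held 22% to 23.4% of the counts in vehicle libraries and 57.8% to 59.4% in compound plus LPS libraries, and the genes called lower held 15.6% to 17.4% and 3.58% to 3.69%. These shares describe the calls and are no test of them. Prdx1, which encodes the thiol peroxidase peroxiredoxin 1, alone took 1.34%, 2.03% and 1.49% of the counts of the vehicle libraries and 9.27%, 8.70% and 14.1% of those of compound plus LPS. Next to it, Rsad2 took 2.34% of the counts on average in compound plus LPS, Fth1 (ferritin heavy chain) 2.13%, Cxcl2 1.72% and Acod1 1.16%. Cytosolic ribosomal proteins went from 4.60% to 5.24% in vehicle to 2.37% to 2.79%, and lysosomal genes from 4.21% to 4.86% to 2.13% to 2.62%. An exact permutation test of such a share over 3 against 3 libraries cannot go below p = 0.1, the value found for the shares of Prdx1, ribosomal proteins and lysosomal genes. The scaling sets where no change lies: with library totals alone the median of all genes moved to -0.84, and 875 genes were called higher and 4856 lower (15.3% of calls higher in place of 50.8%). With upper quartile scaling the median was -0.36 and the calls 1370 higher and 2683 lower (33.8% higher). Directions below are relative to the TMM reference, and lists whose median changes sign under library totals are named.

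**Figure D2:**
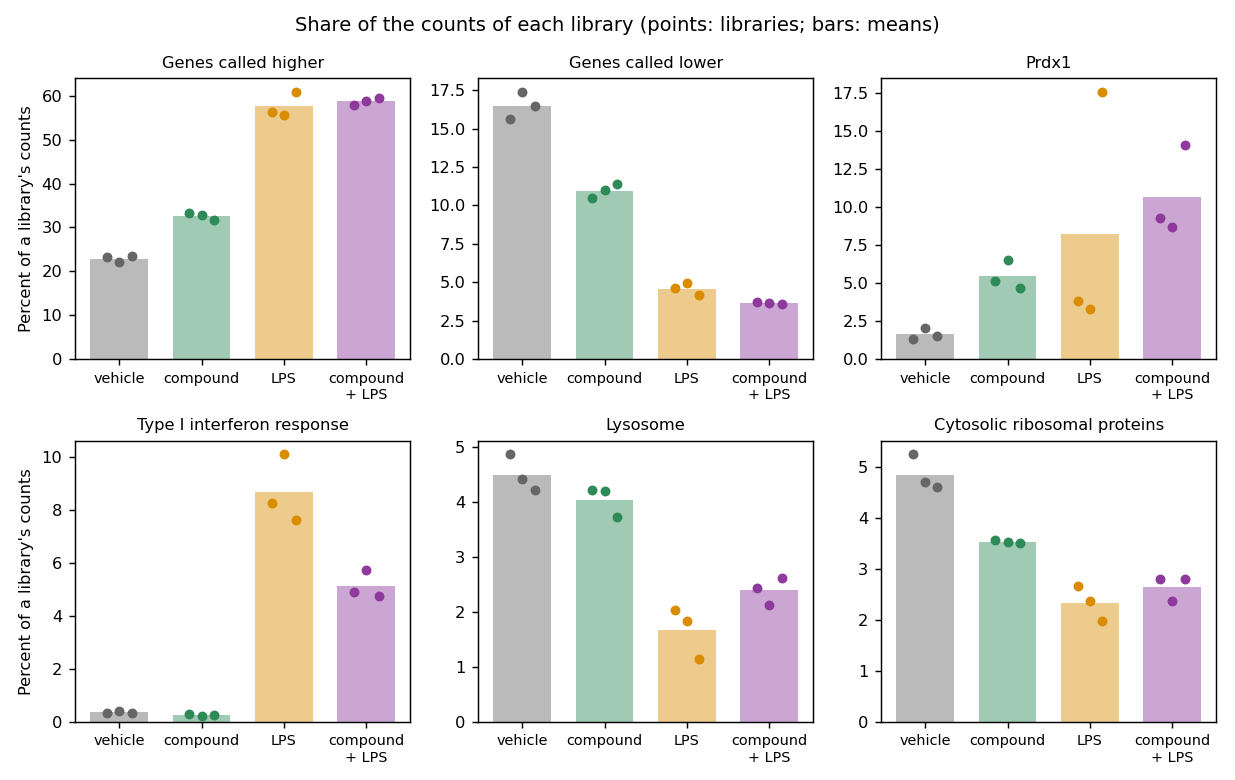
Points are libraries and bars are group means (3 libraries each) of the percent of a library's counts held by the genes called higher, the genes called lower, Prdx1, the 40 type I interferon response genes, 30 lysosomal genes and 80 cytosolic ribosomal protein genes, in the 4 groups of the experiment. In compound plus LPS the genes called higher lie between 57.8% and 59.4% against 22% to 23.4% in vehicle, and the first 2 panels show genes picked by this comparison.

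Across the named functions, the lists with the highest medians were chemokines, cytokines, inflammatory enzymes and interferon-stimulated genes, and those with the lowest were MHC class II and cell cycle genes. The members of all lists and the functions they stand for were chosen with earlier results of these data known, so their counts describe this comparison and support nothing beyond it. They are read against the background of 19.5% of genes higher and 18.8% lower. Cxcl5, Serpinb2, Irf9, Zfp36, Keap1, Mki67, C1qb, Mef2c, Cebpb and Msr1 are named after their values were seen.

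**Figure D3:**
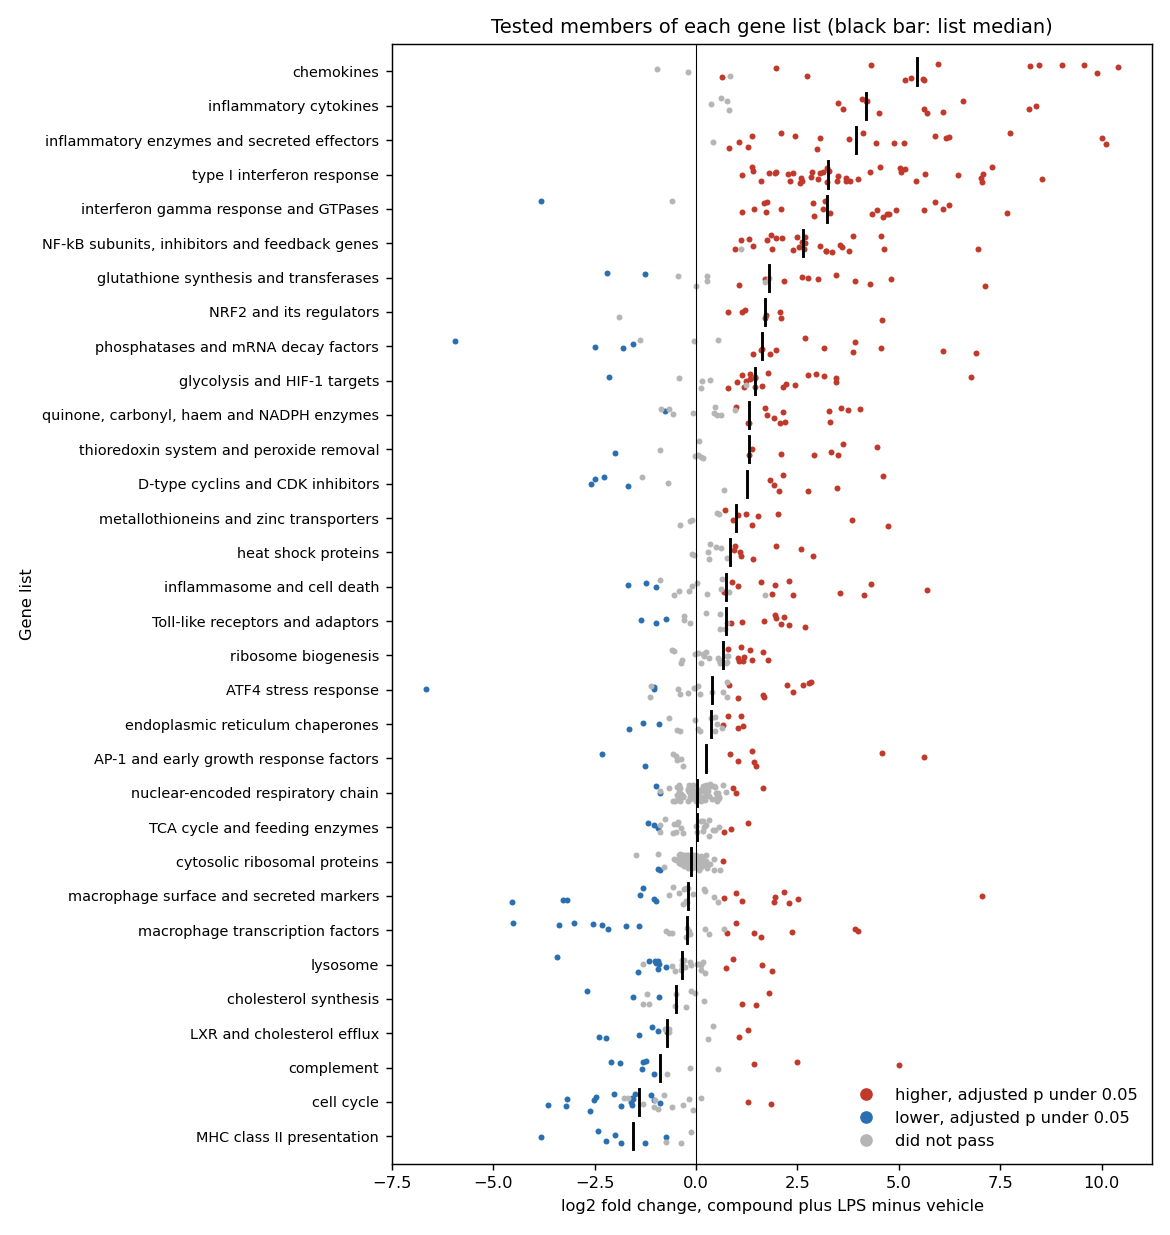
Each point is a tested member of 1 of 32 gene lists, placed by its log2 fold change of compound plus LPS minus vehicle, with the list median as a black bar. Chemokines (median 5.44) and cytokines (4.20) lie farthest to the right, MHC class II genes (-1.56) and cell cycle genes (-1.41) farthest to the left, and points called higher are red, lower blue and those that did not pass grey.

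Chemokines, the secreted attractants of leukocytes, rose in 15 of the 18 members tested, none fell, and their median log2 fold change was 5.44 against -0.06 for all genes. Cxcl2 (Entrez gene 20310, chromosome 5, 90903899 to 90905938) lay at 25.9, 25.8 and 20.1 CPM in the vehicle libraries and at 23800, 24800 and 18900 CPM in compound plus LPS. The groups were far apart, with a log2 fold change of 9.88 ± 0.41 (SE) and an adjusted p of 1.2e-10. Cxcl1, a ligand of the same receptor, went from 1.45, 0.369 and 1.04 CPM to 801, 872 and 911 CPM, a log2 fold change of 9.57 ± 0.40. Cxcl3 lay at 1510, 1580 and 1790 CPM in compound plus LPS, while its 24 vehicle counts all came from replicate 1, so the fitted log2 value of 10.40 ± 0.66 rests on that library (15.62 without it). Ligands of other receptors rose as well: Cxcl10, which attracts T cells through CXCR3, had a log2 fold change of 9.01 ± 0.40 and Ccl5 8.46 ± 0.40. Cxcl5 had no vehicle count and 5.66 to 12.1 CPM in compound plus LPS, at least 45.2-fold higher when vehicle is set to a floor of 3 counts summed over its libraries. Ccl6, Ccl8 and Cxcl14 did not pass. Cxcl14 was called lower without vehicle replicate 2 (adjusted p 0.032), with upper quartile scaling (0.025) and with library totals (0.0026). Ccl6 was called lower with library totals (adjusted p 0.0031).

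Inflammatory cytokines rose in 12 of 16 tested members with a median of 4.20, none fell, and Ebi3, Il18, Osm and Inhba did not pass. Tnf, the early cytokine of LPS responses, lay at 4.14, 1.85 and 0.692 CPM in vehicle and at 781, 512 and 919 CPM in compound plus LPS. Its log2 fold change was 8.21 ± 0.50 (adjusted p 2.9e-09), and 9.35 without vehicle replicate 1. Il6 (Entrez gene 16193, chromosome 5, 30013114 to 30019975) went from 0.104, 1.48 and 0 CPM to 86.5, 103 and 128 CPM, a log2 fold change of 8.38 ± 0.58 that lay between 7.64 and 10.23 when each vehicle library was left out, since vehicle held 5 counts in all. Il1b, the precursor of interleukin 1 beta, went from 4.35, 6.28 and 0.346 CPM to 199, 158 and 175 CPM (5.70 ± 0.51, and 5.11 without vehicle replicate 3). The shared subunit of interleukins 12 and 23, Il12b, rose only to 6.91, 13.6 and 6.73 CPM from 0.829, 0 and 0.346 CPM (4.09 ± 0.69, adjusted p 1.9e-04, and 5.13 without vehicle replicate 1). With TMM scaling and all 6 libraries, no cytokine or chemokine tested was lower at the adjusted threshold in compound plus LPS than in vehicle. Il10, the anti-inflammatory cytokine, had 11 counts in vehicle, all in replicate 1, and 7 in compound plus LPS and was below the filter.

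Of the inflammatory enzymes and secreted effectors, 19 of 20 tested members rose, with a median of 3.94, and Lcn2 (lipocalin 2) did not pass at 19.3 ± 2.44 and 25.6 ± 10.4 CPM. Acod1 (Entrez gene 16365, chromosome 14, 103047012 to 103056573) lay at 13.5, 18.5 and 10 CPM in vehicle and at 12400, 23500 and 9810 CPM in compound plus LPS, a log2 fold change of 10.11 ± 0.51 (adjusted p 5.5e-10). The prostaglandin synthase Ptgs2 had 1.14, 0.369 and 0.173 CPM in vehicle and 821, 864 and 494 CPM in compound plus LPS (10 ± 0.50, and 11.40 without vehicle replicate 1). Both stood among the 10 largest rises of all genes. Slpi, a secreted protease inhibitor, went from 0.645 ± 0.609 to 59.1 ± 9.02 CPM (6.24 ± 0.44), and Serpinb2, the plasminogen activator inhibitor type 2, was at least 32.4-fold higher, with no vehicle count. Nos2, the inducible nitric oxide synthase, missed the filter: it had 0 counts in vehicle and 8.38, 5.83 and 2.35 CPM in compound plus LPS, 65 counts in all and at least 36.3-fold higher against the floor. Arg1, the arginase of alternative activation, had 12 counts in vehicle, all in replicate 1, and 0 in compound plus LPS, and was not tested.

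Subunits, inhibitors and feedback genes of NF-kB rose in 27 of 28 tested members, with a median of 2.63, and only Cd83 did not pass (adjusted p 0.079). Nfkbia, the inhibitor IkB alpha and itself a target of NF-kB, lay at 545, 637 and 556 CPM in vehicle and 5830, 7040 and 8110 CPM in compound plus LPS (3.6 ± 0.29). Nfkbiz, which encodes IkB zeta, the nuclear cofactor that a subset of LPS genes such as Il6 needs, went from 18.4, 9.23 and 17.0 CPM to 176, 206 and 152 CPM (3.54 ± 0.31, adjusted p 1.1e-07). Cd40, the costimulatory receptor, rose by 6.95 ± 0.37, Cflar, an inhibitor of caspase 8, by 4.63 ± 0.36, and the ubiquitin-editing enzyme Tnfaip3 (A20) by 4.55 ± 0.32. Phosphatases, SOCS proteins and mRNA decay factors, which limit cytokine signals, were split: 12 of 19 rose and 4 fell. Socs3 rose by 6.89 ± 0.44 (7.71 without vehicle replicate 1) and Zfp36 (tristetraprolin) by 1.62 ± 0.25 from 82.7 ± 6.61 to 255 ± 51.7 CPM. Its relatives fell: Zfp36l1, at 477, 1660 and 993 CPM in vehicle and 10.5, 19.8 and 21.2 CPM in compound plus LPS, had a log2 fold change of -5.94 ± 0.46, and Zfp36l2 of -2.49 ± 0.31.

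All 40 genes of the type I interferon response rose, with a median of 3.26, and the groups did not overlap in any of them. Rsad2 lay at 137, 272 and 176 CPM in vehicle and 25100, 37400 and 29700 CPM in compound plus LPS (7.30 ± 0.42, adjusted p 1.8e-09). Ifi205, whose reads may be shared with its close relative Ifi204, went from 2.49, 5.91 and 2.94 CPM to 981, 1620 and 1240 CPM (8.53 ± 0.42). Ifit1, which binds viral RNA, rose by 7.03 ± 0.38, and Cmpk2, a mitochondrial nucleotide kinase next to viperin, by 7.08 ± 0.40. Irf9, a signal transducer of the pathway, rose by 1.13 ± 0.26, the smallest value of the list. The ligand gene Ifnb1 had 0 counts in vehicle and 20 in compound plus LPS, at least 11.2-fold higher and below the filter. Genes of the interferon gamma response and the large GTPases rose in 22 of 24 tested members, with a median of 3.24, led by Gbp5 (7.66 ± 0.37) and Iigp1 (6.23 ± 0.41). Irf1, a transcription factor of both responses, went from 73.7, 71.6 and 78.4 CPM to 710, 686 and 800 CPM (3.29 ± 0.26). Irf8, the lineage factor of the same family, did not pass at 295, 307 and 523 CPM in vehicle and 192, 220 and 333 CPM in compound plus LPS (-0.60 ± 0.29, adjusted p 0.12). It was called lower without compound plus LPS replicate 3 (-0.84, adjusted p 0.047), with upper quartile scaling (-0.89, 0.021) and with library totals (-1.39, 7.2e-04). The only member that fell was Ciita, described with MHC class II.

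Genes of glutathione synthesis and conjugation rose in 11 of 19 tested members, with a median of 1.80, while Gstt2 and Gpx1 fell. Gclc (Entrez gene 14629, chromosome 9, 77754535 to 77794489), the catalytic subunit of the rate-limiting enzyme of glutathione synthesis, lay at 52.7, 34.7 and 92.0 CPM in vehicle and 1550, 2330 and 1140 CPM in compound plus LPS. Its log2 fold change was 4.80 ± 0.40 (adjusted p 8.2e-08), and that of the modifier subunit Gclm 2.60 ± 0.33. Slc7a11 (Entrez gene 26570, chromosome 3, 50364936 to 50499087), the cystine importer that supplies this pathway, went from 4.97, 4.43 and 8.65 CPM to 958, 776 and 844 CPM, a log2 fold change of 7.13 ± 0.36 and the largest of the list. Glutathione synthetase, Gss, rose by 4.30 ± 0.32 and Gsta3 by 3.93 ± 0.29. Gpx1, the abundant glutathione peroxidase, went the other way, from 416 ± 80.6 to 174 ± 45.2 CPM (-1.26 ± 0.27), and Gstt2 fell at a low level with a call that was lost without replicate 1 or 2 of compound plus LPS (adjusted p 0.055 and 0.05), and with a log2 value of -3.28 in place of -2.19 without replicate 3.

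In the list of the thioredoxin system and peroxide removal 8 of 15 tested members rose and 1 fell, with a median of 1.30 (0.73 with Prdx1 left out). With library totals 6 were called higher and 7 lower. Prdx1 (Entrez gene 18477, chromosome 4, 116685599 to 116700000), which has processed copies that can share its reads, lay at 9760, 16700 and 11300 CPM in vehicle and 116000, 116000 and 192000 CPM in compound plus LPS, the largest gain of any gene in CPM (3.49 ± 0.38, adjusted p 1.5e-06). Txnrd1 rose by 3.61 ± 0.30 and sulfiredoxin, Srxn1, which repairs oxidised peroxiredoxins, by 3.32 ± 0.26, with 120, 116 and 126 CPM in vehicle and 1280, 1050 and 1280 CPM in compound plus LPS. The mitochondrial superoxide dismutase Sod2, a known target of NF-kB, rose by 4.46 ± 0.32. Txnip, which binds and inhibits thioredoxin, fell from 799, 915 and 1030 CPM to 207, 265 and 221 CPM (-1.99 ± 0.26). Quinone, carbonyl, haem and NADPH enzymes rose in 14 of 24 tested members, with a median of 1.30. Among them Sqstm1, the autophagy receptor p62, rose by 4.03 ± 0.29, the quinone reductase Nqo1 by 3.75 ± 0.28 and the haem oxygenase Hmox1 by 3.29 ± 0.36, from 71.0, 151 and 65.9 CPM to 1030, 639 and 1110 CPM. The iron exporter Slc40a1 (ferroportin) fell from 364 ± 86.4 to 215 ± 6.57 CPM (-0.76 ± 0.25, adjusted p 0.024), a call lost without any of the 3 treated libraries or without vehicle replicate 3 (adjusted p 0.053 to 0.15). Fth1 rose by 0.99 ± 0.29, and not with upper quartile scaling (adjusted p 0.064) or library totals (0.55). NRF2 itself, Nfe2l2, rose by 1.72 ± 0.31, its inhibitor Keap1 by 1.70 ± 0.25, and the small MAF genes Maff, Mafk and Mafg by 4.59 ± 0.38, 2.10 ± 0.36 and 2.07 ± 0.27.

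The ATF4 list, genes of amino acid supply and the integrated stress response, held 9 genes that rose and 3 that fell among 25 tested, with a median of 0.40 that became -0.38 with library totals. Mthfd2, a mitochondrial folate enzyme, rose by 2.83 ± 0.28, and Ppp1r15a (GADD34), the phosphatase subunit that ends the response, by 2.79 ± 0.31. Atf3 went from 224, 230 and 270 CPM to 531, 612 and 338 CPM (1.03 ± 0.27, adjusted p 0.006, and 0.42 with library totals). Ddit3 (CHOP) fell from 40.8, 44.7 and 41.7 CPM to 18.4, 18.1 and 25.2 CPM (-1.04 ± 0.27). Vldlr, the very low density lipoprotein receptor, had no count in compound plus LPS, at least 8.96-fold lower. The fall of Cebpg (log2 -1.05) shrank to -0.21 without vehicle replicate 2 (adjusted p 0.55). Its call was also lost without any of the 3 treated libraries (adjusted p 0.085 to 0.12). Heat shock proteins rose in 8 of 16 members with a median of 0.85, led by the near-identical pair Hspa1b (2.88 ± 0.42) and Hspa1a (2.58 ± 0.51), whose reads cannot be told apart with certainty. With library totals 4 heat shock proteins were called higher and 1 lower, with a median of 0.06. Of 19 endoplasmic reticulum chaperones and sensors 5 rose (26.3%) and 3 fell (15.8%), near the shares of all genes (19.5% higher and 18.8% lower). Their median of 0.37 became -0.42 with library totals. The stress sensor Ern1 (IRE1 alpha) was among those that fell (-1.66 ± 0.28). Metallothioneins and zinc transporters rose in 9 of 14, led by Mt2 (4.73 ± 0.30, from 22.9 ± 4.44 to 612 ± 116 CPM). Their median of 0.98 became 0.19 with library totals, where 5 were called higher and 2 lower.

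Glycolytic enzymes and targets of HIF-1 rose in 21 of 27 tested members, with a median of 1.45. The glucose transporter Slc2a1 lay at 34.8, 17.7 and 31.7 CPM in vehicle and 301, 351 and 283 CPM in compound plus LPS (3.45 ± 0.30). Adm, the vasodilator adrenomedullin, rose by 6.78 ± 0.54 from 5 counts in all of vehicle (7.74 without vehicle replicate 1), and the lactate exporter Slc16a3 was among the others that rose. Vegfa, also a HIF-1 target, fell from 74.6, 62.4 and 68.3 CPM to 14.2, 17.2 and 15.5 CPM (-2.14 ± 0.26, adjusted p 6.4e-06). Enzymes of the TCA cycle and its feeding reactions stayed near the median of all genes: 3 of 28 rose, 3 fell and the median was 0.01, against -0.77 with library totals. Idh1, the cytosolic isocitrate dehydrogenase, fell from 438, 346 and 451 CPM to 178, 173 and 193 CPM (-1.18 ± 0.24). Sdha, the catalytic subunit of succinate dehydrogenase, the enzyme that itaconate inhibits, did not pass at 73.7, 72.4 and 75.8 CPM against 53.4, 41.5 and 53.1 CPM (-0.58 ± 0.24, adjusted p 0.068, and 0.0088 with upper quartile scaling). Of 77 nuclear-encoded subunits of the respiratory chain, 3 rose and 2 fell, and their median of 0.02 became -0.75 with library totals. Cytosolic ribosomal proteins were alike, with 1 of 76 higher, 2 lower and a median of -0.11, but 64 of them were called lower with library totals.

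Lipid and lysosome genes held calls in both directions with TMM scaling, and mostly lower calls with library totals. Of 13 LXR targets and cholesterol efflux genes 6 fell and 2 rose, with a median of -0.72, and with library totals 9 were called lower and none higher. The exporter Abcg1 lay at 275, 236 and 349 CPM in vehicle and 47.1, 61.9 and 55.8 CPM in compound plus LPS (-2.39 ± 0.27), and the receptor Scarb1 fell by 2.23 on the log2 scale. In cholesterol synthesis 3 of 15 rose and 3 fell, with a median of -0.49. These are 20% each way, near the shares of all genes (19.5% higher and 18.8% lower). With library totals 2 were called higher and 9 lower. Among 30 lysosomal genes 9 fell and 4 rose, with a median of -0.34. With library totals 23 of them were called lower and 2 higher, with a median of -1.12. The factor Tfeb, which drives lysosome genes, fell from 20.7, 48.0 and 16.3 CPM to 3.14, 2.92 and 1.35 CPM (-3.44 ± 0.48, and -2.85 without vehicle replicate 2), whereas its relative Mitf rose from 113, 69.0 and 88.9 CPM to 358, 352 and 282 CPM (1.87 ± 0.26). Lpl, the lipoprotein lipase, was among the 8 largest gains of CPM (1.35 ± 0.29, from 4420 ± 647 to 11300 ± 2500 CPM), and not called with library totals (adjusted p 0.095).

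Cell cycle genes fell in 16 of 30 tested members and rose in 2, with a median of -1.41. Cdk1, the mitotic kinase, lay at 26.4, 28.1 and 20.9 CPM in vehicle and 7.12, 2.59 and 2.69 CPM in compound plus LPS (-2.52 ± 0.40, adjusted p 1e-04, and -3.22 without compound plus LPS replicate 1), and the replication helicase subunit Mcm2 fell by 3.19 on the log2 scale. Mki67, a usual marker of proliferation, was not among them, at 13.5 ± 0.932 and 12.6 ± 6.09 CPM. The members that rose were Pcna, the sliding clamp (1.27 ± 0.25), and Ccne1, cyclin E1 (1.84 ± 0.50, adjusted p 0.068 without replicate 1 of compound plus LPS). Cyclins and inhibitors of the G1 phase were divided. Cdkn1a (p21) went from 224, 406 and 269 CPM to 3040, 4330 and 2600 CPM (3.47 ± 0.33) and Cdkn2b (p15) from 3.83, 3.32 and 3.46 CPM to 98, 105 and 63.9 CPM (4.62 ± 0.32), while Cdkn1b (p27) fell by 2.59 on the log2 scale. Myc rose from 2.90, 8.49 and 3.63 CPM to 23.7, 20.7 and 48.8 CPM (2.75 ± 0.45), and Ccnd1, cyclin D1, fell from 84.8, 213 and 119 CPM to 15.3, 34.0 and 37.7 CPM (-2.27 ± 0.38). Of 28 ribosome biogenesis genes, many of them targets of MYC, 10 rose and none fell, with a median of 0.66 that became -0.12 with library totals.

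MHC class II genes fell or did not pass, while genes of complement and macrophage identity moved both ways with TMM scaling. MHC class II presentation had no member that rose and 7 of 10 that fell, with a median of -1.56. H2-Aa, the alpha chain of I-A, lay at 54.3, 61.7 and 49.1 CPM in vehicle and 15.5, 9.07 and 20.9 CPM in compound plus LPS (-1.86 ± 0.31), and the invariant chain Cd74 fell by 1.26 on the log2 scale. Ciita, the master regulator of the class II genes, had 2.49, 8.49 and 2.25 CPM in vehicle and 3 counts, all in replicate 1, in compound plus LPS, whose counting error (95% interval) allows a ratio from 0.0168 to 0.257. Its call held in the fits that left out vehicle replicate 2 (-3.05) or the treated replicate 1 (-7.33), against -3.82 with all libraries. The 3 chains of C1q, the first component of the classical complement pathway, fell: C1qa (Entrez gene 12259, chromosome 4, 136895916 to 136898844) went from 459, 582 and 432 CPM to 83.6, 108 and 149 CPM (-2.11 ± 0.28, adjusted p 1.4e-05), C1qc by 1.87 and C1qb by 1.34 on the log2 scale. Complement factor B, Cfb, and C3 rose by 5.01 ± 0.52 (6.25 without vehicle replicate 1) and 2.49 ± 0.26, so that 3 of 12 complement genes rose and 6 fell.

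Among 25 macrophage transcription factors 7 rose (28%) and 8 fell (32%), against 5 and 15 with library totals. Of all genes tested 19.5% were higher and 18.8% lower. Pparg, the lipid-sensing nuclear receptor, fell from 51.8, 26.2 and 71.1 CPM to 10.3, 10.4 and 4.71 CPM (-2.55 ± 0.39) and Mef2c by 3.01 on the log2 scale. Tfec, a relative of Mitf, rose by 4.00 ± 0.31, Ets2 by 3.91 ± 0.28 and Cebpb, a partner of NF-kB at cytokine genes, by 2.36 ± 0.27. Surface and secreted markers rose in 9 of 30 (30%) and fell in 7 (23.3%), against 6 and 16 with library totals and the same shares of all genes. Clec4e (Mincle), the receptor of mycobacterial cord factor, rose from 4.25, 0.738 and 3.11 CPM to 452, 393 and 393 CPM (7.06 ± 0.40), and the scavenger receptor Msr1 by 2.30 ± 0.25. The chemokine receptors Ccr2 and Cx3cr1 fell by 4.53 and 3.19 on the log2 scale, with Cx3cr1 at 8.60, 21.4 and 14.7 CPM in vehicle and 0.209, 1.94 and 3.03 CPM in compound plus LPS. Without replicate 1 or 3 of compound plus LPS the log2 value of Cx3cr1 was -2.53 or -3.90. Csf1r, the receptor of M-CSF, did not pass (688 ± 192 and 578 ± 153 CPM, -0.25 ± 0.28, adjusted p 0.51), and its fall was called with library totals (adjusted p 0.007). Mertk, a receptor for dying cells, gave 0.44 ± 0.60 with a 95% interval of -0.82 to 1.70, and its vehicle libraries spread from 1.85 to 20.2 CPM.

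Sensors of microbes leaned up with TMM scaling, with 9 of 20 Toll-like receptors and adaptors higher, 3 lower and a median of 0.74 that became -0.04 with library totals. Tlr4, the receptor of LPS, lay at 76.8, 50.6 and 68.0 CPM in vehicle and 150, 135 and 144 CPM in compound plus LPS (1.13 ± 0.25, adjusted p 0.002, and 0.27 with library totals). Tlr1, which pairs with Tlr2 on lipopeptides, rose by 2.68 ± 0.34, and the endosomal sensors Tlr9 and Tlr8 fell by 1.37 and 1.00 on the log2 scale. The inflammasome and cell death list had 12 of 26 higher and 3 lower, with a median of 0.75 that became -0.04 with library totals. Nlrp3 went from 32.4, 24.0 and 50.9 CPM to 708, 730 and 728 CPM (4.32 ± 0.32), while its adaptor Pycard (ASC) fell from 54.2, 39.1 and 50.3 CPM to 20.1, 18.5 and 22.5 CPM (-1.24 ± 0.27). The necroptosis effector Mlkl rose by 3.56 ± 0.27 and the pro-apoptotic Bbc3 (PUMA) fell by 1.69 on the log2 scale. Among AP-1 and early growth response factors 7 of 14 rose and 2 fell, and the median of 0.25 became -0.52 with library totals, with Fosl1 (FRA1) at the top (5.63 ± 0.70, from 5 counts in vehicle, all in replicate 1, and 8.76 without it).

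The 10 largest falls of all genes held few members of these lists. Rasgrp3, a guanine nucleotide exchange factor for RAS, lay at 25, 40.6 and 37.2 CPM in vehicle and had no count in compound plus LPS, at least 113-fold lower against the floor. Tmem86a, a lysoplasmalogenase, fell from 49.5, 62.0 and 62.6 CPM to 0.419, 0 and 0.673 CPM (-7.20 ± 0.48). Cxcr4, the receptor that retains cells in the marrow, went from 236, 419 and 270 CPM to 2.09, 2.92 and 8.41 CPM (-6.17 ± 0.45, and -6.94 without compound plus LPS replicate 3), and Tsc22d3 (GILZ), a glucocorticoid-induced inhibitor of inflammation, from 55.3, 75.3 and 51.9 CPM to 0.838, 0.324 and 2.02 CPM (-5.85 ± 0.44, and -6.51 without the same library). Pdcd4, a translation inhibitor, had 577 counts in vehicle and 2 in compound plus LPS, for which counting error (95% interval) allows a ratio from 0.000701 to 0.0211. Engase, a cytosolic glycosidase, had 679 counts and 3, with an interval of 0.00152 to 0.0217, and its fitted log2 value went from -6.98 to -6.20 and -10.65 without replicates 1 and 3 of compound plus LPS. Arhgap19 and Gcnt1 fell by 5.41 and 5.70 on the log2 scale, with Gcnt1 at -7.95 without compound plus LPS replicate 1. In terms of CPM lost among called genes whose groups did not overlap, Selenop, the selenium carrier, was first, from 2780, 2360 and 2010 CPM to 529, 438 and 451 CPM (-2.33 ± 0.27), followed by Lyz2, Apoe and Sirpa. The calls of Lyz2 (adjusted p 0.026) and Apoe (0.045) were lost in 4 and 5 of the 6 fits that left out a library. The rises of Tarm1, a receptor on activated myeloid cells (8.59 ± 0.37), and Sdc4, syndecan 4 (4.78 ± 0.39, from 244, 573 and 324 CPM to 7730, 9980 and 13600 CPM), lay outside the lists as well.

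The levels of the same genes after LPS alone and after the compound alone place this net state. Values of these groups come from a fit of all 12 libraries, in which 15.9% of 10285 genes were called between compound plus LPS and LPS and 18.9% between compound plus LPS and the compound. These comparisons share the compound plus LPS libraries with the one above and are not independent of it, and the LPS libraries held 955718 to 3761119 counts. Mean levels are given in the order vehicle, compound, LPS and compound plus LPS. Tnf stood at 2.23, 2.10, 574 and 737 CPM, and Acod1 at 14.0, 102, 16100 and 15200 CPM. Neither passed the test between compound plus LPS and LPS (log2 0.36 ± 0.39, adjusted p 0.58, and -0.06 ± 0.45, adjusted p 0.95). Il6 stood at 0.527, 0.499, 904 and 106 CPM, so that it was 333-fold above vehicle and 8.54-fold below LPS at the same time (-3.09 ± 0.48 against LPS, adjusted p 2.8e-04). The same held for Il1b, Ccl2, Il12b and Nos2, which were 7.66, 13.6, 27.9 and 29.7-fold lower than with LPS. Nos2 stood at 0, 0.969, 169 and 5.52 CPM and Il12b at 0.392, 2.00, 253 and 9.08 CPM. Il10 stood at 0.380, 0.0766, 19.5 and 0.730 CPM. Nfkbiz, at 14.9, 6.22, 269 and 178 CPM, did not pass against LPS (adjusted p 0.39, and 0.038 without LPS replicate 3).

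Cxcl2, Cxcl1 and Cxcl3 lay above their level with LPS, by 10.4, 9.70 and 15.2-fold, and Slpi by 23.4-fold. The LPS level of Slpi that this implies is within the range that 3 counts make in a single LPS library. Its fold value therefore rests on few counts. Cxcl2 stood at 23.9, 23.6, 2190 and 22500 CPM. Slc7a11 and Hmox1 lay highest with both agents. Slc7a11 stood at 6.02, 80.1, 108 and 859 CPM, 7.85-fold above LPS and 11-fold above the compound (adjusted p 2e-04 and 1.7e-05). Hmox1, at 95.9, 192, 120 and 928 CPM, was 7.75-fold above LPS and 4.98-fold above the compound. Gclc, at 59.8, 727, 13.9 and 1680 CPM, was 108-fold above LPS but did not pass against the compound (2.38-fold, adjusted p 0.054, and 0.0023 with these 2 groups alone in the fit). Nor did Nqo1 (1.70-fold, adjusted p 0.27) or Gclm (1.24-fold, adjusted p 0.63). Prdx1 stood at 12600, 49300, 138000 and 141000 CPM, where LPS replicate 3 held 316000 CPM and the other LPS libraries 52400 and 45700. Without that library the log2 difference from LPS was 1.53 (adjusted p 0.004).

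Falls were placed in several ways. C1qa stood at 491, 61.3, 495 and 113 CPM, low wherever the compound was present. Irf8 stood at 375, 460, 2930 and 248 CPM, so that it did not pass against vehicle and was 12.0-fold lower than with LPS (-3.58 ± 0.45, adjusted p 4.3e-05). Fcgr1, the high-affinity IgG receptor, stood at 121, 16.2, 672 and 81.1 CPM, 8.27-fold below LPS and 5.14-fold above the compound. Its difference from vehicle did not pass (-0.57 ± 0.25, adjusted p 0.084), but was called without compound plus LPS replicate 3 (-0.74, 0.042), with upper quartile scaling (-0.87, 0.012) and with library totals (-1.35, 3.1e-04). Ccnd1 stood at 139, 21.1, 884 and 29.0 CPM, below vehicle and 30.8-fold below LPS. Pparg, at 49.7, 22.3, 0.365 and 8.45 CPM, lay below vehicle and 14.2-fold above LPS (adjusted p 0.0032, and 0.061 with these 2 groups alone in the fit). Its LPS level is near the floor, since 3 counts make 0.798 to 3.14 CPM in a single LPS library before TMM adjustment. The 14.2-fold value therefore rests on few counts.

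**Figure D4:**
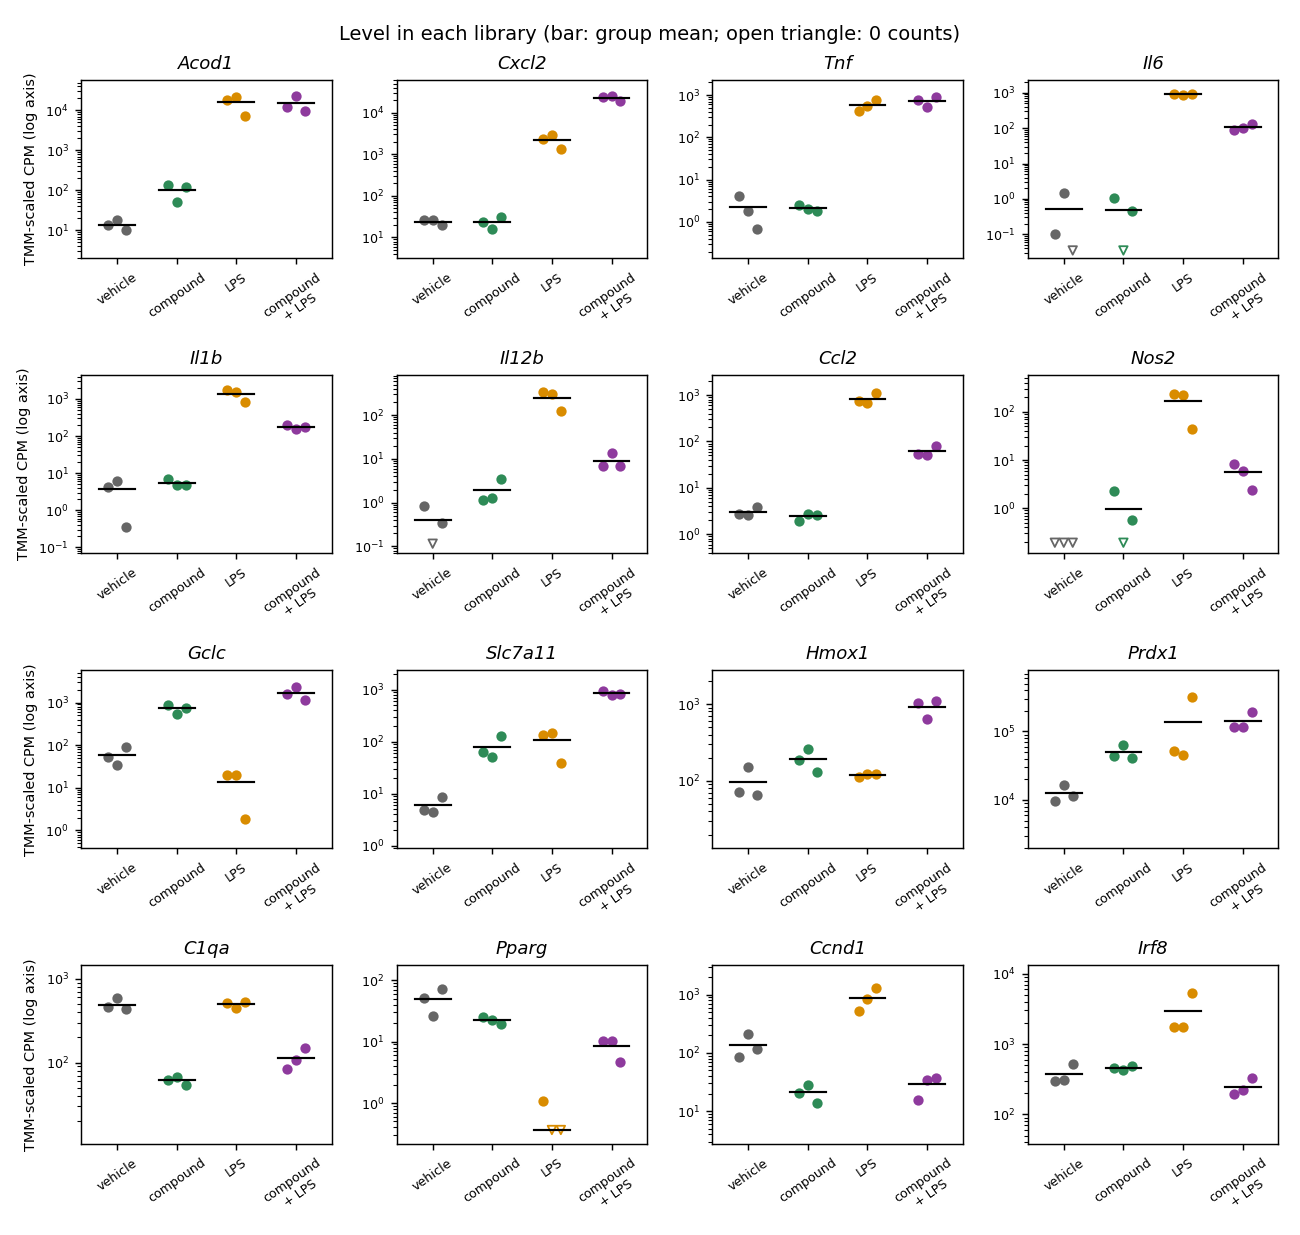
TMM-scaled CPM (log axis) of 16 genes in each of the 12 libraries of the experiment, ordered as vehicle, compound, LPS, then compound plus LPS, with a bar at the group mean and an open triangle for a library with 0 counts. Tnf and Acod1 reach about the same height with LPS and with compound plus LPS, Il6, Il12b, Ccl2 and Nos2 lie between vehicle and LPS, and Slc7a11 and Hmox1 are highest with both agents.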

How the data were processed

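Polyadenylated transcripts of the macrophages were sequenced from barcoded 3′ ends, per the labels' protocols. The deposited values are whole-number counts per gene made by the authors, whose submitters' processing notes name STAR, HTSeq, DESeq2 and the build mm10. Versions, the gene annotation and the strand option of the counting are not given in the sources used here, so overlapping genes and near-identical copies (Prdx1, Fth1, Hspa1a and Hspa1b, Ifi205) are uncertain. The labels mention no molecular identifiers, so intervals and floors cover counting error only. The second experiment was not used.

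Counts of the 6 libraries were fitted with edgeR 4.0.16 in R 4.3.3: filterByExpr with a minimum count of 10, TMM scaling, the quasi-likelihood test and Benjamini-Hochberg adjustment over 9704 genes, with a threshold of 0.05 and a prior count of 0.125 for fold changes. SEs were derived from the F statistic. The test past 2-fold used glmTreat. All 12 libraries were fitted together for the comparisons with LPS and with the compound. Gene floors used 3 counts over a group. Counts were simulated from these libraries for 9704 genes of the vehicle comparison, with only a small part of the genes changed. There, 32% of genes changed 2-fold and 87% of those changed 4-fold were recovered, and 7.03% of the calls were false. A far larger part of the genes was called in the data, so these rates need not hold for the comparison itself. Of 24052 listed genes 23969 were matched to a symbol, and at most 0.738% of a library's counts lay in the others.

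Genes were named by this rule: the 10 largest rises and falls among called genes whose groups did not overlap (ranked with a prior count of 2), the 8 largest gains and losses of mean CPM, a set of anchor genes, and in each list up to 4 called members with the largest change and any member of a direction that held 5 or fewer. Members, lists and anchors were chosen with earlier results of these data known. Alternatives were DESeq2 1.42.0, other scalings and filters, other libraries in the fit, a replicate block, robust spread, Prdx1 left out, and each library left out in turn. Some genes are not reported here.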

Additional observations from a re-analysis of the deposited data

How the results depend on the processing

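In the comparison with vehicle, scaling had the largest effect on the counts of calls among the alternatives run. With library totals alone 875 genes were higher and 4856 lower, and Cs, Ctsz, Dnajb11 and Rpl24, called higher with TMM, had log2 values of -0.09, -0.05, -0.12 and -0.11. A fit of all 12 libraries called 1398 genes higher and 1130 lower. DESeq2 gave 1962 and 1813, no filter 2059 and 1980, and a minimum count of 30 gave 1704 and 1673. Leaving out each library in turn gave 1569 to 1913 higher and 1408 to 1707 lower, and 729 to 827 and 551 to 614 past 2-fold. Of 187 named genes called, 31 lost the call without some library. Against LPS, a fit of these 2 groups alone gave 273 higher and 380 lower, and leaving out a library gave 499 to 1106 and 386 to 963. There Maff ranged from -1.18 to 1.24 and Prdx1 from -0.31 to 1.53, with the highest values without LPS replicate 3. Against the compound, 2 groups alone gave 1539 lower, and leaving out a library gave 874 to 996 higher and 451 to 573 lower. The cause of these changes was not tested.

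The replicate numbers were not treated as pairing the samples: same-numbered libraries of the 2 groups had correlated deviations of 0.135, -0.0776 and -0.111. With a replicate block 1800 genes were higher and 1654 lower, and 790 and 600 past 2-fold. Depth limits genes with few counts in vehicle, whose fold changes rest on single libraries. The 3 libraries a group leave 4 residual degrees of freedom.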

Other observations

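Genes of the circadian clock, the oscillator of transcription factors present in most cells, were looked up after falls of Dbp and Per3 had been seen. Of 16 such genes 14 were tested, 8 were lower in compound plus LPS and none higher, with a median log2 fold change of -1.22. Over all genes tested 18.8% were lower and 19.5% higher, with a median of -0.06. No test was made of this list, which was chosen for its values. Dbp, an output factor of the clock, had 467 counts in vehicle and 3 in compound plus LPS. Per3, a repressor subunit, lay at 7.56, 8.49 and 8.13 CPM in vehicle and 0.419, 0 and 1.01 CPM in compound plus LPS (-4.04 ± 0.72). The nuclear receptor Nr1d1 fell by 2.64 on the log2 scale and Per2 by 1.99. The core activators Clock and Arntl did not pass.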
